A study of Homo sapiens with 4 samples.

Results

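The genes described here are 10 heat shock genes outside the HSP70 and DNAJ families, picked by name and found by symbol among 62700 gene identifiers. They are the cytosolic HSP90 genes HSP90AA1 and HSP90AB1, HSPH1, the mitochondrial chaperonin genes HSPD1 and HSPE1, the small heat shock gene HSPB1, the cochaperone gene BAG3, the collagen chaperone gene SERPINH1, and the transcription factor genes HSF1 and HSF2. All 10 passed the filter on low counts and were among the 18139 genes tested. The libraries were made from poly(A) RNA of HEK293T, a line of human embryonic kidney origin, after transient transfection with a construct of RPB1, the catalytic subunit of RNA polymerase II. T4A cells received RPB1 in which alanine stands for threonine 4 of every repeat of the carboxyl-terminal domain (CTD), and WT cells received RPB1 with the wild-type domain. Both constructs resisted α-amanitin, which was added to both groups 1 day after transfection at 2.5 µg/ml for 48 hours to eliminate endogenous RPB1. Each group had 2 libraries, and the study refers to them as biological replicates, although the labels name no separate cultures.

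Heat shock proteins are molecular chaperones that hold, fold or disaggregate other proteins. When unfolded proteins accumulate, the transcription factor HSF1 forms trimers and binds heat shock elements, which are alternating repeats of GAA and its reverse complement TTC, upstream of chaperone genes. Several chaperone genes are also transcribed at a high rate in unstressed dividing cells, and HSP90 is known to help hold HSF1 inactive.

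The 4 libraries held between 19257217 and 23465029 counts in the T4A group and between 24695291 and 33063535 in the WT group. Of 10 genes known from HEK293T cells, 9 were above 1 count per 1000000 counts after TMM scaling of library totals (CPM) in every library, with a summed level of 490 to 500.2 CPM in T4A and 475 to 485 CPM in WT. Markers of other cell types were low in both groups. The 6 fibroblast genes summed to 6.59 to 7.40 CPM in T4A and 7.63 to 8.86 CPM in WT with COL1A2 at 0, and the 6 blood genes to 1.63 to 3.46 CPM in T4A and 1.998 to 2.34 CPM in WT with CD68 and HBB at 0. The 3 endothelial genes found summed to 0.213 to 0.2203 CPM in T4A and 0.566 to 0.742 CPM in WT, and the 4 hepatocyte genes to 1.45 to 3.46 CPM in T4A and 1.16 to 1.80 CPM in WT with SERPINA1 at 0. POLR2A, which counts the construct and the endogenous gene together, was at 5378 and 5477 CPM in T4A and at 3772 and 2764 CPM in WT, a log2 fold change of 0.73 ± 0.08 (SE). The study reports similar protein levels of both constructs, monitored by Western blot, whereas the values here are of RNA. A difference in construct level and the mutation cannot be told apart for any gene below.

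Heat shock elements were looked for first, since they are the sequences that HSF1 recognises. RefSeq promoter windows on GRCh38, from 250 bases before to 50 bases after a start site, were given for 9 of the 10 genes, and several genes have more than 1 start site, for 15 windows in all. The search covered both strands for 3 alternating units (TTCNNGAANNTTC or its reverse complement GAANNTTCNNGAA) and for 2 units (TTCNNGAA or GAANNTTC), and every 3-unit match contains 2-unit matches. A 3-unit match stood in windows of 4 of the 9 genes, HSP90AA1, HSP90AB1, HSPD1 and SERPINH1, whereas 0.608% of the 27305 genes with a window had one. A 2-unit match stood in windows of the same 4 genes and HSPB1, against 16.2% of all genes with a window. Since genes differ in their number of windows, shares by window are given too. A 3-unit match stood in 4 of the 15 windows, against 0.490% of all 35116 windows, and a 2-unit match in 5, against 13.5%. The genes were picked by name as heat shock genes, so these contrasts give no independent support. No match was found in the windows of HSPH1, HSPE1, BAG3 and HSF2, which says only that these letters are not in those windows. The sequences below show the matches in capitals, 5′ to 3′ on the strand of the gene, so that the matches and their flanks can be compared.
HSP90AA1, chr14:102087111-102087140, minus strand: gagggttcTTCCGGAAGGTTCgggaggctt
HSP90AB1, chr6:44247823-44247852, plus strand: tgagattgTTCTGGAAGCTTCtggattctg
HSPD1, chr2:197500061-197500090, minus strand: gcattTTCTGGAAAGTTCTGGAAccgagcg
SERPINH1, chr11:75562154-75562213, plus strand: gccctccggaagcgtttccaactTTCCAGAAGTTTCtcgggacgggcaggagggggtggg
HSPB1, chr7:76302465-76302524, plus strand: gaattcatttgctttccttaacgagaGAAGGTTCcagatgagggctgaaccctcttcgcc
The HSP90AA1 match begins 88 bases before a start site inside the gene span, the HSP90AB1 match begins 112 bases before the innermost of its start sites (another begins 165 bases before it), the SERPINH1 match 76 bases before its outermost start and the HSPB1 match 182 bases before its only listed start. The HSPD1 match is the longest, with 18 bases in 4 alternating units.

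Of the 10 genes, 5 were higher in T4A cells and 0 were lower at an adjusted p under 0.05 (edgeR quasi-likelihood test, Benjamini-Hochberg adjustment over all genes tested), and 5 were not called. Among all 18139 genes tested, 23.6% were called, 10.7% higher and 13.0% lower. The split of these calls, 1935 higher and 2351 lower, moved to 2690 and 1718 with upper quartile factors and to 1352 and 2987 with library totals alone. The genes called higher were HSPB1, BAG3, HSPE1, HSF1 and SERPINH1, all at a change of under 1.5-fold. The members with the highest CPM, HSP90AA1, HSPD1 and HSP90AB1, were not among them. The median log2 fold change of the 10 genes was 0.13, and that of all genes tested was −0.01. For 6 of the 10, the T4A and WT libraries did not overlap, 5 with T4A above and 1 with T4A below, where 59.0% of all genes tested did not overlap, 28.5% with T4A above and 30.5% with T4A below.

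**Figure D1:**
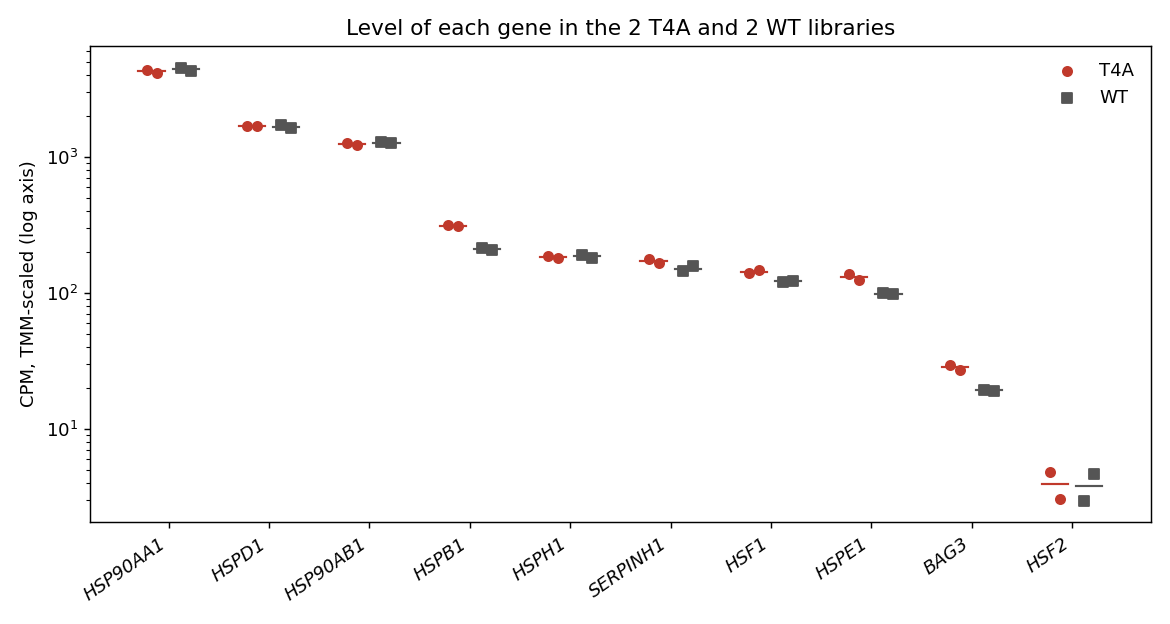
CPM (log axis) of the 10 heat shock genes in each library, ordered by their WT level, with T4A in red circles to the left and WT in grey squares to the right, points standing for libraries and short lines for group means. HSP90AA1 lies above 4000 CPM in all 4 libraries and HSF2 below 5 CPM, and the T4A points of HSPB1, HSPE1 and BAG3 stand clear above their WT points.

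HSP90 is a dimeric chaperone that uses ATP to mature kinases, steroid receptors and other clients. Its HSP90AA1 gene (ENSG00000080824.19, chromosome 14, 102080742 to 102139749, GRCh38) encodes the form that is more inducible by heat. HSP90AA1 was at 4355 and 4188 CPM in the T4A libraries, against 4559 and 4289 CPM in the WT libraries. The lower WT library lay between the T4A libraries, so the groups overlapped. The log2 fold change was −0.05 ± 0.03 (SE, n = 2 libraries per group, 95% interval −0.11 to 0.01, edgeR adjusted p = 0.250). Its share of a library was 0.421% and 0.409% in T4A, against 0.462% and 0.445% in WT. The exons of HSP90AA1 share 197 bases with WDR20 on the opposite strand, a gene with 169 and 147 counts in T4A, against 165 and 176 in WT. The call depended on the settings. HSP90AA1 was called lower with library totals alone (log2 fold change −0.13, adjusted p = 0.000938 by edgeR), with no filter (−0.08, adjusted p = 0.00854), with limma-voom (−0.05, adjusted p = 0.0471) and without WT replicate 2 (−0.10, adjusted p = 0.000299).

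HSP90AB1 (ENSG00000096384.20, chromosome 6, 44246194 to 44253883), the constitutive cytosolic form, was at 1261.1 and 1233 CPM in T4A cells, against 1291 and 1261.2 CPM in WT cells. Both T4A libraries lay below both WT libraries, but the lowest WT library and the highest T4A library were almost level. The log2 fold change was −0.03 ± 0.03 (95% interval −0.10 to 0.03, edgeR adjusted p = 0.514). HSP90AB1 was called lower with library totals alone (−0.11, edgeR adjusted p = 0.00911) and with the trend on exonic length removed (−0.15, edgeR adjusted p = 0.00189), and it was at 0.05 with upper quartile factors. The balance between the cytosolic forms was also close in all libraries. HSP90AA1 had 3.45 and 3.40 counts for each HSP90AB1 count in T4A libraries, against 3.53 and 3.40 in WT libraries. Per kilobase of exonic length (the union of annotated exons), this ratio was 2.02 and 1.99 in T4A and 2.06 and 1.99 in WT, so the inducible form was the more abundant transcript in both groups.

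HSPH1 (ENSG00000120694.20, chromosome 13, 31134973 to 31162388) encodes HSP110, a relative of HSP70 that exchanges its nucleotide. It was at 186 and 179.9 CPM in T4A cells, against 191 and 181 CPM in WT cells, and the groups overlapped. The log2 fold change was −0.03 ± 0.05 (95% interval −0.13 to 0.08, edgeR adjusted p = 0.781).

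HSPD1 and HSPE1 encode the chaperonin HSP60 and its lid HSP10, which together fold proteins in the mitochondrial matrix. The genes lie head to head on chromosome 2, HSPD1 (ENSG00000144381.18) from 197486584 to 197500274 on the minus strand and HSPE1 (ENSG00000115541.11) from 197500379 to 197503449 on the plus strand. The stretch between their outermost start sites is 104 bases long with a GC content of 74.0% and holds no 2-unit heat shock element. It is shown because both genes start from its ends.
HSPD1 to HSPE1, chr2:197500275-197500378, plus strand: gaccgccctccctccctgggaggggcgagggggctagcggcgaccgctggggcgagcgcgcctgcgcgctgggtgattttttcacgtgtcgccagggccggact
The 4-unit element printed above for HSPD1 lies on the HSPD1 side of this stretch, 189 to 206 bases inside HSPD1 and 294 to 311 bases from the HSPE1 start, outside the HSPE1 window searched.

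Of the head-to-head genes, HSPE1 was called higher in T4A cells and HSPD1 was not called, although HSPD1 was called higher with upper quartile factors (log2 fold change 0.10, edgeR adjusted p = 0.0319) and with the trend on exonic length removed (0.17, edgeR adjusted p = 0.000376), where HSPE1 was at 0.21. HSPD1 was at 1705 and 1684 CPM in T4A cells, against 1714 and 1646 CPM in WT cells. The T4A libraries lay between the WT ones, and the log2 fold change was 0.01 ± 0.03 (95% interval −0.05 to 0.08, edgeR adjusted p = 0.831). HSPE1 was at 138 and 126 CPM in T4A cells, against 99.6 and 98.5 CPM in WT cells. Both T4A libraries of HSPE1 lay well above both WT libraries, and the log2 fold change was 0.41 ± 0.06 (95% interval 0.29 to 0.54, edgeR adjusted p = 2.97e-05), or 1.33-fold. There were 12.4 and 13.4 counts of HSPD1 for each count of HSPE1 in T4A libraries, against 17.2 and 16.7 in WT libraries. The ratio was thus lower in both T4A libraries, by a mean of −0.40 on the log2 scale (T4A minus WT). The difference in the ratio was not tested. Alignment was unstranded and no source used here gives a strand setting for counting, so reads in shared exons cannot be assigned by strand. The annotated exons of the genes share 135 bases, which are 7.41% of the HSPE1 exonic length and 1.77% of that of HSPD1. HSPE1 also shares 192 exonic bases with the read-through gene HSPE1-MOB4, for which each group had 1 library with 0 counts and 1 library with 4.

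**Figure D2:**
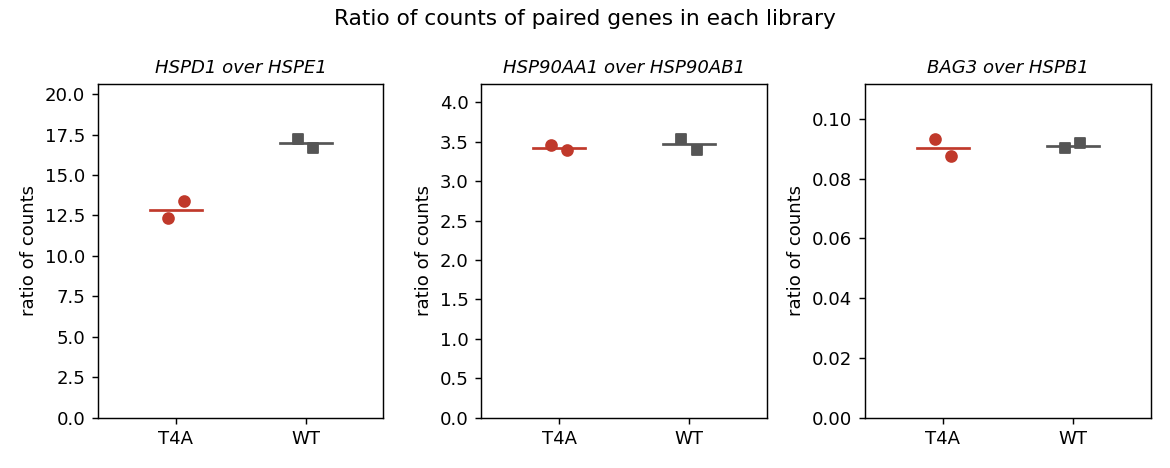
Ratio of counts within each library for 3 pairs of genes, with T4A in red circles to the left and WT in grey squares to the right, points standing for libraries and short lines for group means; all axes start at 0. The HSPD1 over HSPE1 ratio is 12.4 and 13.4 in T4A, below 17.2 and 16.7 in WT, with no correction for exonic length, while the T4A and WT points of the other ratios overlap.

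HSPB1 (ENSG00000106211.10, chromosome 7, 76302673 to 76304292) encodes HSP27, a small heat shock protein that holds unfolding proteins without using ATP and binds actin filaments. It was at 315 and 313 CPM in T4A cells, against 215 and 207 CPM in WT cells. The T4A libraries were almost equal to each other and stood above both WT libraries. The log2 fold change was 0.57 ± 0.04 (95% interval 0.48 to 0.66, edgeR adjusted p = 1.15e-08), or 1.49-fold, and it lay at percentile 89.99 among the log2 fold changes of all genes tested.

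BAG3 (ENSG00000151929.10, chromosome 10, 119651380 to 119677819) encodes a nucleotide exchange factor of HSP70 that binds small heat shock proteins and directs clients to autophagy. It was at 29.4 and 27.4 CPM in T4A cells, against 19.4 and 19.1 CPM in WT cells, with no overlap. The log2 fold change was 0.56 ± 0.10 (95% interval 0.35 to 0.78, edgeR adjusted p = 0.000356), or 1.48-fold. There were 0.0932 and 0.0877 counts of BAG3 for each count of HSPB1 in T4A libraries, against 0.0903 and 0.0919 in WT libraries, so the ratio of these partners overlapped between the groups. HSPB1, BAG3 and HSPE1 were called higher under each of the 14 alternative settings, leaving out each library included.

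SERPINH1 (ENSG00000149257.16, chromosome 11, 75562253 to 75572783) encodes HSP47, which binds procollagen in the endoplasmic reticulum. It was at 177 and 168 CPM in T4A cells, against 145 and 158 CPM in WT cells. The groups did not overlap, but the gap between the nearest libraries was smaller than the spread within WT. The log2 fold change was 0.19 ± 0.06 (95% interval 0.07 to 0.31, edgeR adjusted p = 0.0166). The call was lost without T4A replicate 1 (log2 fold change 0.15, adjusted p = 0.0898), without WT replicate 1 (0.13, adjusted p = 0.232), with library totals alone (0.11, adjusted p = 0.191) and in a test against a fold of 1.2 (adjusted p = 0.961).

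The transcription factor genes stood far apart in level. HSF1 (ENSG00000185122.11, chromosome 8, 144291604 to 144314720), the main activator of the heat shock response, was at 139.7 and 147 CPM in T4A cells, against 122 and 124 CPM in WT cells. Both T4A libraries were above both WT libraries, with a log2 fold change of 0.22 ± 0.05 (95% interval 0.11 to 0.34, edgeR adjusted p = 0.00462). This call was lost with library totals alone (0.15, adjusted p = 0.0673) and in the test against a fold of 1.2 (adjusted p = 0.847). HSF1 shares 137 exonic bases, or 2.58% of its exonic length, with DGAT1 on the opposite strand, with 3254 and 2750 counts in T4A, against 3704 and 2899 in WT. HSF2 (ENSG00000025156.13, chromosome 6, 122399551 to 122433119), a factor that acts in development and can form trimers with HSF1, was the least abundant of the 10. It had 110 and 58 counts in T4A libraries, against 100 and 120 in WT libraries, or 4.85 and 3.08 CPM against 2.98 and 4.68 CPM. The groups overlapped, and the log2 fold change of 0.07 ± 0.29 had a 95% interval of −0.55 to 0.68 (edgeR adjusted p = 0.914).

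**Figure D3:**
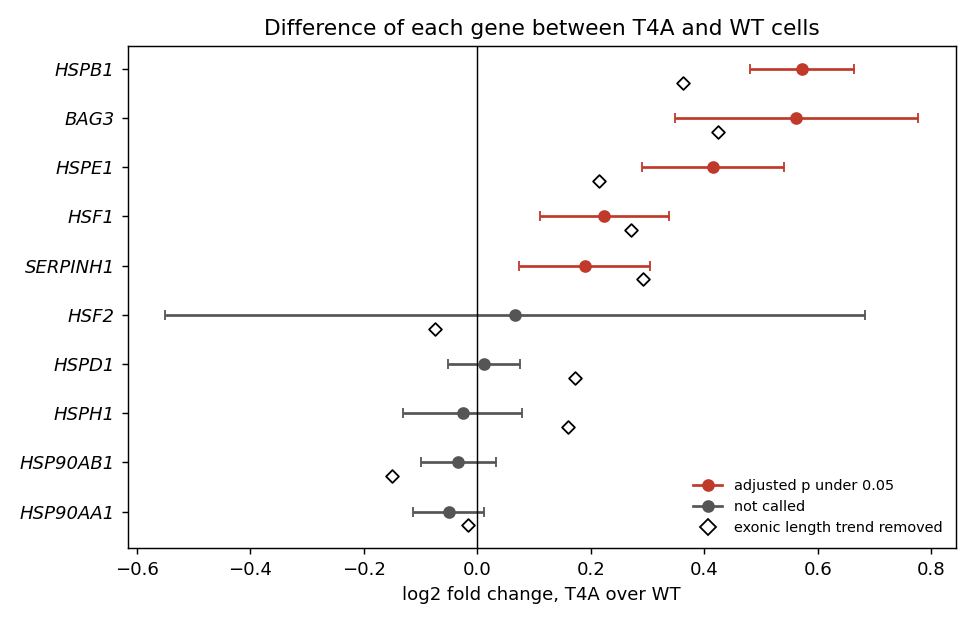
Log2 ratio of T4A to WT for each of the 10 genes, with bars for the 95% interval of the fit, red marking genes called at an adjusted p under 0.05 and grey the others; white diamonds give the value after the trend with exonic length was removed. HSPB1, BAG3 and HSPE1 lie farthest to the right at 0.57, 0.56 and 0.41, the intervals of HSP90AA1, HSP90AB1, HSPH1 and HSPD1 are narrow and include 0, and that of HSF2 is wide.

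Per kilobase of exonic length, the order of levels in WT cells was HSP90AA1 (868 CPM per kilobase), HSP90AB1 (428), HSPD1 (220.2), HSPB1 (130.2), HSPE1 (54.3), SERPINH1 (24.1), HSF1 (23.1), HSPH1 (22.2), BAG3 (7.03) and HSF2 (1.42). The order in T4A cells was the same, from 838 CPM per kilobase for HSP90AA1 to 1.47 for HSF2. SERPINH1 and HSF1 did not differ beyond their spread in either group, with 28.2 and 26.7 for SERPINH1 and 26.3 and 27.7 for HSF1 in T4A, and 23.0 and 25.2 for SERPINH1 and 22.95 and 23.3 for HSF1 in WT. With the length of the canonical transcript, a choice made after the data were seen, HSPD1 (755 CPM per kilobase in T4A and 748 in WT) was above HSP90AB1 (488 in T4A and 499.5 in WT), and the other genes kept their places. Together the 10 genes held 0.804% and 0.788% of all counts in T4A libraries, against 0.848% and 0.829% in WT libraries. HSP90AA1 was 52.4% and 51.9% of that sum in T4A and 54.5% and 53.7% in WT.

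Genes with short exonic length tended to be higher in T4A cells, and the part of this trend in the results for the heat shock genes was examined only by removing it. The median log2 fold change was 0.25 over 1803 genes with up to 1000 bases of exons and −0.25 over 3839 genes with more than 8000. HSPB1 and HSPE1 have the shortest exonic lengths of the 10, 1623 and 1823 bases, and HSPH1 and HSPD1 the longest, 8391 and 7629 bases. At these lengths the trend over all genes was 0.21 for HSPB1, 0.20 for HSPE1, −0.19 for HSPH1 and −0.16 for HSPD1. With the trend removed, HSPB1, HSPE1 and BAG3 were still called higher at log2 fold changes of 0.36, 0.21 and 0.42. HSF1 and SERPINH1 were called higher at 0.27 and 0.29. HSPD1 and HSPH1 were then called higher as well (0.17, edgeR adjusted p = 0.000376, and 0.16, edgeR adjusted p = 0.0303), and HSP90AB1 was called lower (−0.15, edgeR adjusted p = 0.00189). HSPE1 and HSPD1, at 0.41 and 0.01 before, were thus at 0.21 and 0.17 with the trend removed. All trend-removed values, here and for the genes below, rest on the union of annotated exons. The canonical transcript of HSPD1 has 2245 bases, against 7629 in the union, and is shorter than those of HSP90AB1 (2555) and HSP90AA1 (3228). SERPINH1 and HSF1 have 2058 and 2134 canonical bases, against 6281 and 5305 in the union. A trend on canonical length was not fitted.

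Several of these genes have pseudogenes or other copies named after them, and the sources used here do not say how multimapping fragments were treated. Named copies of HSPE1 numbered 27, with the read-through gene HSPE1-MOB4 counted among them, and together they had 1.02% and 1.18% of the HSPE1 counts in T4A libraries, against 1.98% and 2.10% in WT libraries. The 18 copies of HSPD1 had 1.06% and 1.06% of its counts in T4A and 1.08% and 1.05% in WT. The 5 copies of HSP90AA1, chiefly HSP90AA2P (375 and 334 counts in T4A, against 831 and 521 in WT), had 0.39% and 0.429% of its counts in T4A and 0.554% and 0.487% in WT. For HSP90AB1 the copies had 0.605% and 0.591% in T4A and 0.543% and 0.563% in WT, and for HSPB1 they had 0.182% and 0.051% in T4A and 0.249% and 0.151% in WT. Whether fragments moved between genes and copies was not tested.

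Partners and targets of these genes were listed by function, 8 lists in all. Over all 18139 genes tested, 10.7% were called higher and 13.0% lower. Of 21 HSP90 cochaperone genes, 20 were tested, 9 were higher and 2 were lower in T4A, with a median log2 fold change of 0.18. FKBP8, an immunophilin-like protein of mitochondria that binds HSP90, was at 1048 and 1032 CPM in T4A and at 733 and 725 CPM in WT, and rose by 0.51 ± 0.03 on the log2 scale (SE, as for the values below). CDC37, which brings kinases to HSP90, was at 725 and 675 CPM in T4A and at 561 and 542 CPM in WT, and rose by 0.34 ± 0.04. NUDC rose by 0.43 ± 0.07, and FKBP5, an immunophilin of steroid receptor complexes, fell by 0.37 ± 0.07 on the log2 scale (78.6 and 71.2 CPM in T4A against 100.3 and 93.2 CPM in WT). FKBP5 was not called with the trend removed (edgeR adjusted p = 0.225). The HSP90 genes of other compartments, HSP90B1 of the endoplasmic reticulum and TRAP1 of mitochondria, were not called, at log2 fold changes of 0.08 ± 0.04 and 0.03 ± 0.04. HSP90B1 was called higher with the length trend removed (0.35, edgeR adjusted p = 5.82e-07), with upper quartile factors (0.17, edgeR adjusted p = 0.00221) and with limma-voom (0.08, adjusted p = 0.0401). TRAP1 was at −0.05 with library totals alone.

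Other small heat shock genes were near or below 1 CPM. Of 10 listed, 9 were found and 4 were tested and 0 were called (0 also at an unadjusted p under 0.05), with a median log2 fold change of −0.06, and the highest of them, HSPB6, was at 0.749 and 1.33 CPM in T4A and at 0.865 and 1.25 CPM in WT. Of the 5 other BAG genes, all were tested, with a median of −0.46, and BAG5 was lower, at 20.4 and 24.03 CPM in T4A and 29.6 and 31.5 CPM in WT (log2 fold change −0.46 ± 0.11). BAG1 was at 0.12 ± 0.10, or 0.26 with the length trend removed, and was not called in either fit. BAG6 had only 51 and 24 counts in T4A libraries, against 45 and 146 in WT libraries, and was not called at −0.96 ± 0.49. Of the fits with all 4 libraries, only that with no filter called BAG6 lower (−0.99, edgeR adjusted p = 0.0383). Its value was −1.44 without T4A replicate 1, −1.67 without WT replicate 1 and 0.39 without WT replicate 2. Among 16 other HSF genes and regulators of HSF1, 10 were tested, 2 were higher and 1 was lower, with a median of −0.15. Of all genes tested, 10.7% were higher and 13.0% lower. HSBP1, which binds the trimerization domain of HSF1, was at 488 and 479 CPM in T4A and at 431 and 426 CPM in WT, a rise of 0.17 ± 0.04. That call was lost with library totals alone (0.10, edgeR adjusted p = 0.0683), and the value was 0.40 with the length trend removed. HSF4 was higher at 0.68 ± 0.23 (8.64 and 6.91 CPM in T4A against 3.995 and 5.82 CPM in WT), a call lost without T4A replicate 1 (adjusted p = 0.135) and without WT replicate 1 (adjusted p = 0.385), with library totals alone (adjusted p = 0.0678), with the length trend removed (adjusted p = 0.0582, all by edgeR) and with DESeq2 (adjusted p = 0.0558). CSNK2A1, the catalytic subunit of casein kinase 2, fell by 0.48 ± 0.10 on the log2 scale, and was not called with the length trend removed (−0.13, edgeR adjusted p = 0.441). PLK1 was not called, at 0.39 ± 0.15 (edgeR adjusted p = 0.0598), and was called higher with upper quartile factors (adjusted p = 0.0223), with the filter at a mean of 1 CPM (adjusted p = 0.0469) and with the replicate block (adjusted p = 0.0482).

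Of 26 genes outside the 10 that HSF1 is known to drive in heat shock, 23 were tested. Of these, 11 were higher and 2 were lower, with a median log2 fold change of 0.21. Among all genes tested, 10.7% were higher and 13.0% lower. Not tested were HSPA1A, with 0 counts in every library, HSPA1B, with 0 to 9 counts per library, and CRYAB, with 3 to 12. The sources used here do not say how multimapping fragments were treated, so counts near 0 do not show that a transcript was absent. Whether HSPA1A and HSPA1B lost fragments in this way was not tested. The 26 genes share AHSA1, FKBP4, STIP1 and CHORDC1 with the cochaperones and P4HA2 with the collagen list. They share CRYAB and HSPB8 with the small heat shock genes. AHSA1 and FKBP4 are counted as higher in both of their lists. The HSP70 gene HSPA6, which is silent without stress, had 28.4 and 23.2 CPM in T4A and 0.656 and 0.937 CPM in WT. DNAJB1, an HSP40 cochaperone, was at 24.4 and 24.8 CPM in T4A and at 10.9 and 13.9 CPM in WT, a log2 fold change of 0.99 ± 0.13. HSPA8, the constitutive HSP70, rose by 0.58 ± 0.06. Since earlier results of these libraries were known when the lists were made, the counts give no independent support.

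Of 15 genes of mitochondrial protein quality control, all were tested, 4 were higher and 2 were lower, with a median of 0.03. CLPP, a matrix protease, was at 149.8 and 156 CPM in T4A and at 112 and 109.5 CPM in WT, a rise of 0.47 ± 0.05, and LONP1, another, rose by 0.27 ± 0.04. YME1L1 of the inner membrane fell by 0.20 ± 0.04 on the log2 scale, a call lost with the length trend removed (−0.05, edgeR adjusted p = 0.52) and with upper quartile scaling (−0.12, adjusted p = 0.0736). DNAJA3 was called higher although the groups overlapped, with 10.5 and 0.585 CPM in T4A and 0.537 and 0.82 CPM in WT, and its log2 fold change of 3.06 was −0.20 without T4A replicate 1. Its call was lost with DESeq2 (adjusted p = 0.147) and with limma-voom (adjusted p = 0.0991). Of 20 collagen genes and collagen-folding partners of SERPINH1, 19 were tested, 4 were higher and 5 were lower, with a median of −0.03. PPIB, a prolyl isomerase, rose by 0.34 ± 0.05 and FKBP10, another, by 0.17 ± 0.04. FKBP10 was not called with library totals alone (0.09, edgeR adjusted p = 0.108). PLOD2, a lysyl hydroxylase, fell by 0.44 ± 0.05 on the log2 scale, and COL4A1, a basement membrane collagen, was at 34.1 and 31.5 CPM in T4A and at 46.3 and 54.9 CPM in WT, a log2 fold change of −0.62 ± 0.09. With the length trend removed, PLOD2 was at −0.15 and COL4A1 at −0.33. In the test against a fold of 1.2, the calls of CDC37, NUDC, FKBP5, BAG5, HSBP1, HSF4, CSNK2A1, LONP1, YME1L1, PPIB and FKBP10 were lost. Over all tested genes the median was −0.01, with 10.7% called higher and 13.0% lower.

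**Figure D4:**
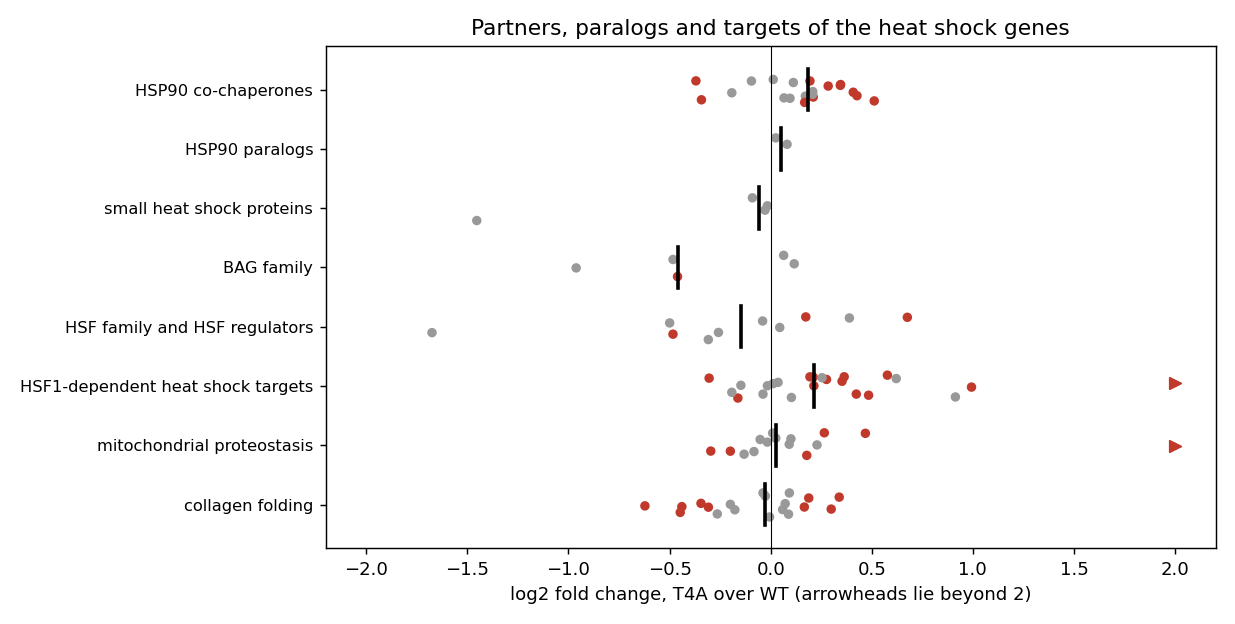
Log2 ratio of T4A to WT for the tested genes of 8 lists of partners, paralogs and targets, 1 point per gene, red marking called genes and grey the others, black bars giving list medians and arrowheads values beyond 2. The HSP90 cochaperones and the HSF1-dependent targets have medians of 0.18 and 0.21, and the collagen and mitochondrial lists have called genes on both sides of 0.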

How the data were processed

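Poly(A) RNA of HEK293T cells was sequenced in 2 T4A and 2 WT libraries. The submitters' processing notes name Trimmomatic 0.38, HISAT2 2.2.1, featureCounts 2.0.1 and build hg38, and the study's methods state that alignment was unstranded. Each library was deposited as unnormalized, whole-number fragment counts for each gene. Symbols and exonic lengths came from GENCODE release 44 as lifted to an earlier genome build, in which 60877 of 62700 identifiers were found and 59851 had the same version. An older GENCODE release is stated in the methods of the study, although most identifiers carried the version of release 44. The release used in counting was not established, so exonic lengths may differ from those used in counting. Coordinates and promoter windows came from RefSeq on GRCh38.

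After filterByExpr and TMM scaling, glmQLFit and glmQLFTest of edgeR 4.0.16 under R 4.3.3 gave the T4A over WT comparison. CPM values use TMM-scaled library totals. They are shares of a library, so fewer cells and less RNA per cell cannot be told apart. Standard errors were derived from the quasi-likelihood F statistic, and intervals use the degrees of freedom of the fit. With 2 libraries per group, the tests borrow their estimate of spread from all genes and measure only differences between these libraries, which may be technical. Replicates of a group differed by more than sampling noise (chi-square per degree of freedom 4.56 in T4A and 5.66 in WT). The script was tested on simulated data. The members and lists were chosen with earlier results of these data known. All 10 members are named, and up to 4 genes of each list with the smallest p, except 1 gene that is not reported here. The alternatives were DESeq2 size factors, upper quartile factors, library totals, no filter, a filter at a mean of 1 CPM, limma-voom (limma 3.58.1), DESeq2 1.42.0, a replicate block, each library left out, removal of a lowess trend on exonic length, and a test against a fold of 1.2.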

Additional observations from a re-analysis of the deposited data

How the results depend on the processing

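HSPB1, BAG3 and HSPE1 stayed called higher under all 14 alternatives, HSF1 under 12 and SERPINH1 under 10. The number of members called higher was 5, and was 3 with library totals alone and in the test against a fold of 1.2, 6 with upper quartile factors, where HSPD1 was called, 7 with the exonic length trend removed, where HSPD1 and HSPH1 were, and between 4 and 5 without each library. The number called lower was 0, and was 2 with library totals alone and 1 with no filter, with limma-voom and with the exonic length trend removed. Without each library it lay between 0 and 1. With upper quartile factors, HSP90AA1 was at 0.033, HSP90AB1 at 0.050 and HSPH1 at 0.058. With library totals alone, HSPD1 was at −0.065 and HSF2 at −0.0147, and with no filter HSPD1 was at −0.0142. With the length trend removed, HSPH1 was at 0.16 and HSF2 at −0.074. Without each library, the log2 fold change lay between −0.30 and 0.41 for HSF2, between −0.099 and 0.00055 for HSP90AA1, between −0.068 and 0.019 for HSPH1 and between −0.021 and 0.049 for HSPD1. Over all genes, 1935 were called higher and 2351 lower. In the test against a fold of 1.2 these were 596 and 980, and with the length trend removed 1467 were lower. Of the 91 tested genes of the lists, 28 were higher and 13 lower, where 10.7% and 13.0% of all genes tested were. There were 6 lower with upper quartile factors and 6 with the length trend removed, 7 higher and 2 lower in the test against a fold of 1.2, and between 7 and 14 lower without each library. Same-numbered libraries did not deviate together (correlation −0.004), and the fit with the replicate number as a block called 2012 genes higher and 2432 lower, with 5 members higher and 0 lower. The causes of these changes were not tested. HSF2 had 58 to 120 counts per library, and the parts of depth and of replicate spread in its interval were not separated.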
